A study of Mus musculus with 9 samples.

Results

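This account sets KO2 against KO1, a pair of separately edited mouse embryonic stem cell lines that both lack Kif2a. It uses 6 of the 9 libraries of the series, 3 per line, and 10238 of the 15526 genes in the deposited table, those whose value averaged at least 10 across the 9 libraries. KO2 is the line labelled E5 and KO1 the line labelled C5, both with the genotype Kif2a knockout, and the WT cells carry the wild-type genotype. All 3 groups were embryonic stem cells of a 129 background that received no treatment, and poly-A RNA was taken in Trizol and sequenced from stranded libraries as paired ends of 50 bases. The lines were kept apart here to describe differences between lines that carry 1 genotype label. The cause of such differences was not tested. The labels do not say whether each line is 1 clone. Each is 1 line, so any difference between KO2 and KO1 belongs to this pair of lines. The labels do not say whether the 3 libraries of a line came from separate cultures, so p-values measure the spread between these libraries, which may be technical.

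Kif2a encodes a kinesin-13, a motor that takes tubulin off the ends of microtubules instead of walking along them. Embryonic stem cells that pass through a single-cell bottleneck can come to differ from their sister lines in chromosome content, in imprints and in their metabolic or signalling state. Genes of the short arm of the mouse Y chromosome are read in male stem cells, and several have a close relative on the X chromosome that escapes X inactivation.

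Levels are given as the normalised value of the deposited table, reads scaled by the authors. One unit stood for 8.45 to 10.4 reads, and the libraries held 14960295 to 18814858 reads. Along the first principal component (36.3% of the variance) the KO2 libraries lay at -10.7 to -9.53, the KO1 libraries at 1.06 to 2.52 and the WT libraries at 5.57 to 10.99. The second, with 15.4%, placed the KO1 libraries at -7.93 to -5.02, apart from the KO2 libraries at 1.85 to 3.68 and the WT libraries at 3.25 to 5.46. The median standard deviation of a gene within a group, on the log2 scale, was 0.0783 in KO2, 0.0687 in KO1 and 0.0736 in WT.

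Kif2a itself did not tell the lines apart. It stood at 1.06, 0.710 and 1.75 in the KO2 libraries, which is 9, 6 and 17 reads, and at 0.886, 1.16 and 0.957 in the KO1 libraries, 9, 11 and 10 reads. The WT libraries had 109, 121 and 113. The log2 fold change of KO2 over KO1 was 0.10 ± 0.18 (SE, adjusted p = 0.803), with a 95% interval of -0.28 to 0.47.

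Between the lines 1016 of the 10238 tested genes were called at an adjusted p under 0.05, or 9.92% of them. Of these 482 were higher in KO2, 4.71% of the tested genes, and 534 were lower in KO2, 5.22%. Counts of gene lists are to be read beside these shares. The differences were mostly small: the median size over the called genes was 0.24 on the log2 scale, 37 genes (0.361%) differed by at least 1.5-fold and 3 by at least 2-fold. Of these 37 genes, 15 were higher and 22 lower in KO2. The 3 KO2 libraries did not overlap the 3 KO1 libraries in 2855 genes, 27.9% of those tested, and in 969 of the called genes. The count of calls was 521 without KO1 replicate 2 and 618 without KO1 replicate 3. Without KO1 replicates 1, 2 or 3 there were 308, 240 and 320 higher genes, and without KO1 replicates 2 or 3 there were 281 and 298 lower genes. In all 347 of the 1016 genes were called in each of the fits that left out 1 library.

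**Figure D1:**
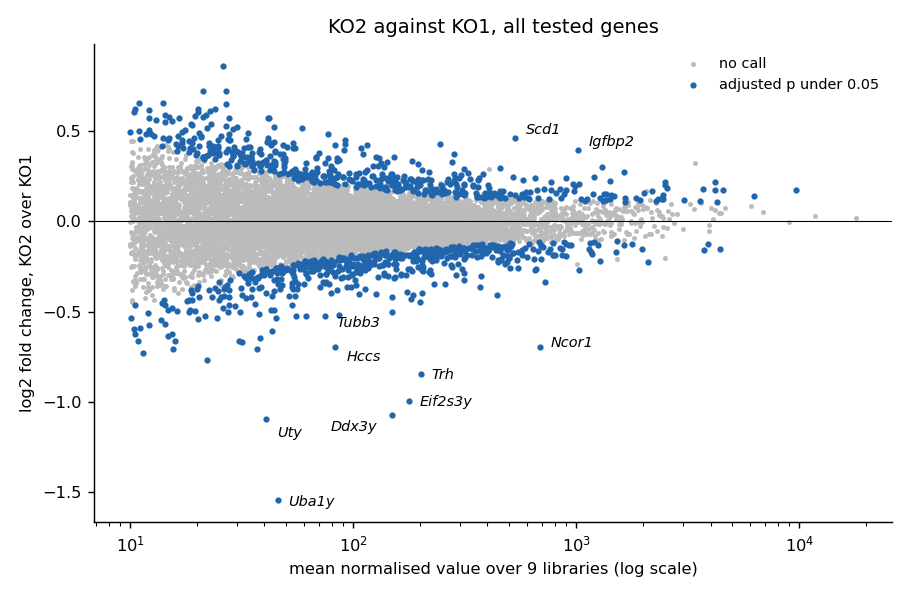
Each point is 1 of the 10238 tested genes, with its mean normalised value over the 9 libraries on a log axis and its log2 fold change of KO2 over KO1. The 1016 called genes are blue, and the Y-linked genes, Trh, Hccs and Ncor1 lie far below the other genes of like level.

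The widest gap was in genes of the Y chromosome's short arm, which were lower in KO2 than in KO1. Uba1y, a Y-linked ubiquitin-activating enzyme at chrY:818649-844224 (GRCm38, plus strand), had 25.2, 28.6 and 26.6 in the KO2 libraries, against 84.7, 73.2 and 82.5 in the KO1 libraries. The WT libraries had 31.4, 29.3 and 30.7, so WT sat beside KO2 and KO1 stood apart. The KO2 mean was 33.4% of the KO1 mean, a log2 fold change of -1.54 ± 0.09 (SE, adjusted p = 3.0e-20).

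Ddx3y, which encodes a DEAD-box RNA helicase at chrY:1260771-1286629 on the minus strand, had 94.9, 108 and 111 in KO2, against 229, 212 and 219 in KO1 and 117, 129 and 121 in WT. These values rest on 803 to 1076 reads per KO2 library and 2017 to 2329 per KO1 library. The KO2 mean was 47.5% of the KO1 mean (log2 fold change -1.07 ± 0.06, adjusted p = 3.0e-20). Eif2s3y, the Y-linked gamma subunit of the initiation factor eIF2, had 123, 133 and 144 in KO2, against 280.1, 271 and 247 in KO1 and 130, 132 and 134 in WT, and the KO2 mean was 50.1% of that of KO1. Uty, the Y-linked relative of the histone demethylase gene Kdm6a, had 28.2, 26.1 and 31.0 in KO2, against 64.1, 60.8 and 60.5 in KO1 and 30.2, 37.9 and 28.04 in WT. For both, the KO1 libraries lay above every KO2 and WT library, with log2 fold changes of -0.99 ± 0.06 for Eif2s3y and -1.09 ± 0.10 for Uty (adjusted p = 3.0e-20 and 1.3e-12).

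Further Y-linked genes lay under the filter on low values. Zfy1, a Y-linked zinc finger gene, had 4.61, 4.26 and 4.42 in KO2, against 12.2, 14.2 and 10.3 in KO1 and 5.18, 7.44 and 7.16 in WT. Kdm5d and Usp9y were near the limit of detection, with 10 to 15 and 0 to 5 reads per KO2 library against 17 to 29 and 9 to 10 per KO1 library. The predicted gene Gm47283, on the Y chromosome and passed over by the naming rule, was the fifth tested gene there and was not called (log2 fold change -0.35, adjusted p = 0.079). Of the 50-base words in Uba1y transcripts 48.1% occur in other genes, most of them in Gm2098, so its reads could be split in counting. For Ddx3y the share was 0.0385%, for Eif2s3y 0% and for Uty 2.12%.

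The X-linked relatives, named here after their values were seen, lay closer together in the lines. Ddx3x had 841, 827 and 865 in KO2 and 866, 871 and 897 in KO1, and Eif2s3x had 324, 303 and 333 in KO2 and 322, 327 and 318 in KO1. Neither was called (adjusted p = 0.38 and 0.91). Kdm6a was called lower in KO2 (log2 fold change -0.20 ± 0.06, adjusted p = 0.035), with 92.3, 95.7 and 106 in KO2, against 115, 105 and 118 in KO1. That call was lost without replicate 1 or 3 of KO1, or replicate 1 or 2 of KO2, and under quantile normalization.

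Hccs, an X-linked gene for the enzyme that attaches haem to cytochrome c, was lower in KO2 than in KO1, with WT close to KO2. It lies at chrX:169250193-169320372 on the minus strand and had 66.3, 66.8 and 72.6 in KO2, against 114, 114 and 107 in KO1 and 68.7, 67.9 and 71.7 in WT. The KO1 libraries were above all others, and the KO2 mean was 61.4% of the KO1 mean (log2 fold change -0.70 ± 0.07, adjusted p = 4.0e-11). Of its 50-base words 24.5% are shared with its annotated neighbour Arhgap6. Msl3, named after its values were seen as a tested gene nearby on the X chromosome, had 10.99, 12.2 and 15.3 in KO2 and 14.6, 13.3 and 11.01 in KO1, which overlap (adjusted p = 0.96).

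Over the whole X chromosome 2 of 310 tested genes were higher in KO2 (0.645%) and 23 lower (7.42%), beside 4.71% and 5.22% of all tested genes. Their median log2 fold change was -0.05, against -0.01 over all tested genes. The lower count was 14 without KO1 replicate 1 or KO2 replicate 2, and 15 without replicate 2 or 3 of KO1, or replicate 1 of KO2. The higher count was 0 without KO1 replicate 3 and 1 without KO2 replicate 3. Medians of the autosomes ran from -0.03 on chromosome 6 to 0.01 on chromosome 19. No run of 15 neighbouring tested genes, of 9806 runs outside the Y chromosome and the mitochondrial genome, had a median beyond -0.19 or 0.18.

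**Figure D2:**
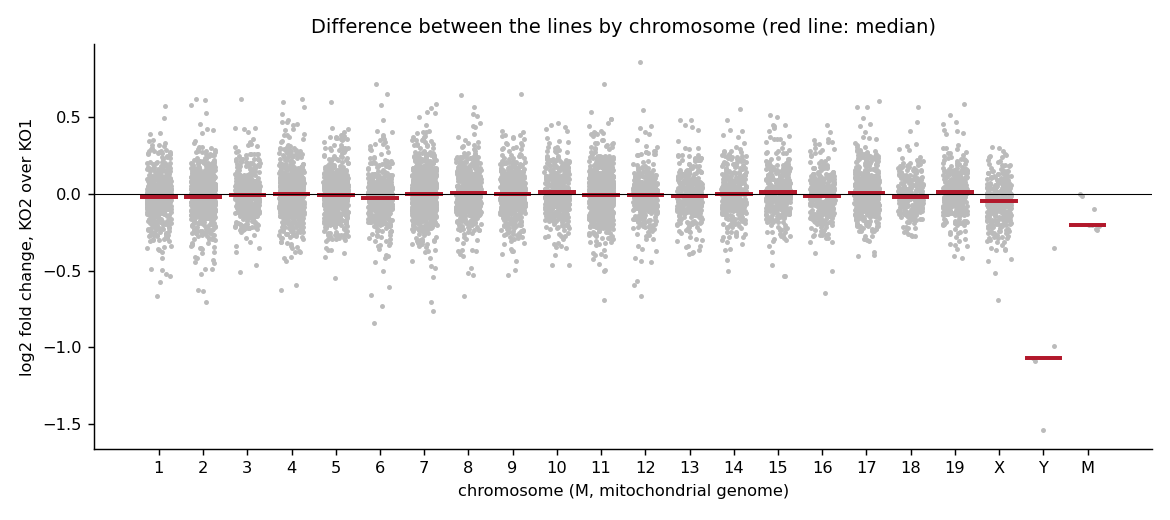
The log2 fold change of KO2 over KO1 of each tested gene with an annotated position, by chromosome, with a red line at the chromosome's median. The Y chromosome's median was -1.07 and that of the 8 mitochondrial genes -0.20, while the medians of the autosomes lay between -0.03 and 0.01.

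Ncor1 had the smallest adjusted p of the autosomal genes. It encodes a corepressor that holds histone deacetylase 3 at genes bound by nuclear receptors and other factors, and lies at chr11:62316426-62458541 (GRCm38, minus strand). Ncor1 had 473, 490.1 and 500.2 in KO2, against 787, 794 and 787 in KO1 and 787, 746 and 808 in WT. Here KO2 stood apart, and KO1 and WT overlapped. The KO2 mean was 61.8% of the KO1 mean, a log2 fold change of -0.69 ± 0.04 (adjusted p = 3.0e-20) with a 95% interval of -0.77 to -0.61.

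No other tested gene near Ncor1 was called lower in KO2 than in KO1. Of 16 tested genes that start within 1 Mb, itself included, Ncor1 was called lower, and the clone-named gene 2410006H16Rik was called higher (0.40, adjusted p = 6.5e-05); it is counted here although the naming rule passed it over. Pigl, which starts head to head with Ncor1 and overlaps it by 82 bases in the annotation, had 76.7, 67.1 and 73.0 in KO2, against 86.1, 74.3 and 85.5 in KO1 and was not called (log2 fold change -0.18 ± 0.07, adjusted p = 0.10). Zswim7 (-0.32, adjusted p = 0.12), Specc1 (0.40, adjusted p = 0.054), Epn2 (-0.10), Ubb (-0.08), Tvp23b (-0.05), B9d1 (-0.03), Zfp286 (-0.01), Prpsap2 (0.02), Cenpv (0.06), Ttc19 (0.09), Akap10 (0.12), Mapk7 (0.13) and Lrrc75a (0.18) were not called either. Ttc19, at chr11:62281473-62328451 on the plus strand, also overlaps Ncor1 in the annotation, at the far end from Pigl. Of the 16 tested genes of the NCoR complex and its partners, Ncor1 was the 1 gene called (6.25%, against 5.22% lower over all tested genes), 0 being higher. The lower count was 2 without KO2 replicate 1, and 1 gene was higher without KO1 replicate 3 or KO2 replicate 3.

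Of the 3 other tested genes within 1 Mb of Kif2a 1 was called between the lines. Dimt1, an rRNA methyltransferase gene whose annotated end overlaps that of Kif2a by 1229 bases, had 22.8, 26.1 and 28.7 in KO2 and 20.7, 23.9 and 25.8 in KO1, both below the 42.9, 46.2 and 50.9 of WT. The lines overlapped, and the log2 fold change between them was 0.13 (95% interval -0.08 to 0.34, adjusted p = 0.45). Zswim6 was not called (0.14, adjusted p = 0.53). Ipo11, a nuclear import receptor, was called lower in KO2 (-0.18 ± 0.05, adjusted p = 0.027), with 205, 194 and 203 in KO2, against 201, 237 and 247 in KO1. KO1 replicate 1 lay within the KO2 range, and the call was lost without replicate 2 or 3 of KO1, or replicate 2 of KO2.

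Trh, at chr6:92242061-92244650 on the minus strand, encodes the precursor of thyrotropin-releasing hormone and split the lines to opposite sides of WT. It had 139, 143 and 137 in KO2, against 236, 249 and 270.2 in KO1 and 206, 211 and 218 in WT, with no overlap between any of the 3 groups. The log2 fold change of KO2 over KO1 was -0.85 ± 0.05 (adjusted p = 8.0e-19). Syne2, which encodes the nuclear envelope protein nesprin-2, lay in the same order with 167, 172 and 172 in KO2, against 228, 231 and 238 in KO1 and 194, 190.2 and 201 in WT. Its log2 fold change was -0.45 ± 0.05 (adjusted p = 4.0e-09).

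**Figure D3:**
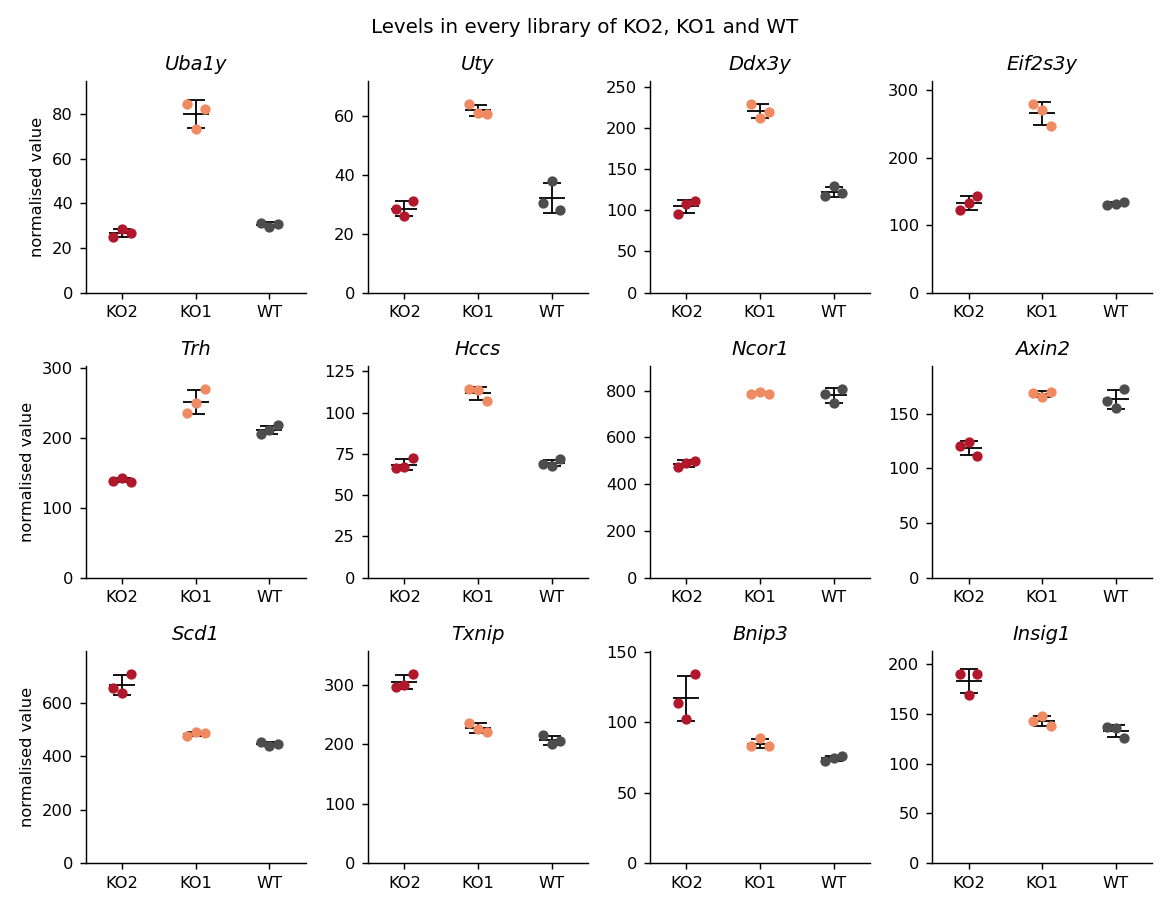
The normalised value of 12 genes in each library of KO2, KO1 and WT, with the mean and standard deviation of 3 libraries as bars. KO1 stands above both other groups for Uba1y, Uty, Ddx3y, Eif2s3y and Hccs, KO2 lies below both for Ncor1 and Axin2 and above both for Scd1, Txnip, Bnip3 and Insig1, and the groups take 3 separate levels for Trh.

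The other genes lowest in KO2 among those called, with a mean value of at least 50 and no overlap between the lines, were of mixed function. Tubb3, a tubulin best known from neurons, had 56.7, 58.2 and 52.4 in KO2, against 78.3, 79.2 and 84.9 in KO1 (log2 fold change -0.53 ± 0.07, adjusted p = 4.2e-07). Pramel6, a PRAME-family gene of early embryos, had 41.6, 47.1 and 47.3 in KO2, against 68.1, 67.8 and 61.0 in KO1 (-0.53). Cd109, a membrane-anchored co-receptor of TGF-beta, had 55.0, 45.0 and 59.0 in KO2, against 78.1, 74.8 and 75.9 in KO1 (-0.53). Its WT libraries had 56.7, 59.4 and 49.3, so that KO1 was the line apart. The list went on with X-linked Nexmif (-0.52), the adhesion receptor gene Adgrg6 (-0.46), the titin gene Ttn (-0.43), the glutathione transferase gene Gsto1 (-0.42) and the RNA-binding protein gene Rbm45 (-0.41).

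The genes highest in KO2 by the same rule were led by Slc1a1, a transporter of glutamate and cysteine, with 74.2, 65.7 and 76.8 in KO2, against 47.9, 49.9 and 52.9 in KO1 (0.51 ± 0.08, adjusted p = 6.4e-06). Wrnip1, an ATPase of stalled replication forks, had 97.4, 99.0 and 91.7 in KO2, against 71.8, 63.2 and 70.5 in KO1 (0.48). Txnip, which restrains glucose uptake, had 297, 300.1 and 318 in KO2, against 235, 226 and 220 in KO1 and 215, 200.4 and 205 in WT (0.42 ± 0.05, adjusted p = 6.0e-09). All KO2 libraries lay above all KO1 libraries in each of these 3 genes. Igfbp2, which binds insulin-like growth factors, had 1257, 1237 and 1177 in KO2, against 944, 927 and 921 in KO1 (0.39 ± 0.04, adjusted p = 4.0e-11). Smim14 (0.43), the lysosomal membrane gene Laptm4b (0.43), the transcription factor gene Tef (0.41), the sialomucin gene Podxl (0.40) and the retinol dehydrogenase gene Rdh11 (0.40) were also among the 15 highest. The 15 highest and 15 lowest genes kept their calls in every fit that left out 1 library and in every other fit that was run.

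Genes of cholesterol synthesis were higher in KO2 together. In this pathway SREBP-2, with the help of NF-Y bound to CCAAT boxes, turns on the enzymes when sterol is low, and INSIG1 holds SREBP back when it is high. Of 24 tested members 15 were higher in KO2 (62.5%, against 4.71% of all tested genes) and 0 lower, and their median log2 fold change was 0.22. Insig1 had 190.3, 170 and 190.4 in KO2, against 143, 148 and 138 in KO1 and 136, 136 and 126 in WT (0.36 ± 0.06, adjusted p = 1.7e-05). Msmo1, a sterol C4-methyl oxidase, had 206, 212 and 233 in KO2, against 186, 162 and 168 in KO1 (0.33 ± 0.06, adjusted p = 4.0e-05). The KO2 libraries lay above the KO1 libraries for both. Cyp51, the lanosterol demethylase, had 127, 135 and 137 in KO2, against 98.0, 107 and 103 in KO1 (0.37), and Fdps, the farnesyl diphosphate synthase, had 318, 322 and 323 in KO2, against 271, 271 and 262 in KO1 (0.26). The count ran from 12 to 15 over the fits that left out 1 library.

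The sequences before the starts of Insig1 and Msmo1 are shown because these 2 members had the smallest adjusted p of the list and hold the motif. They are the 250 bases upstream of the RefSeq start (GRCm38.p6), Insig1 at chr5:28071162-28071411 on the plus strand and Msmo1 at chr8:64733579-64733828 on the minus strand, with ATTGG and its reverse complement CCAAT in capitals.
Insig1: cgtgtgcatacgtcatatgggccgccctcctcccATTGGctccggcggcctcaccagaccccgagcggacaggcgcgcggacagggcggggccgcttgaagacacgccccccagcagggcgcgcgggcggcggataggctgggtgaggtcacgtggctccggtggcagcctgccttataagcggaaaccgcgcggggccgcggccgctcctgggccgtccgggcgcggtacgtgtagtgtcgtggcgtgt
Msmo1: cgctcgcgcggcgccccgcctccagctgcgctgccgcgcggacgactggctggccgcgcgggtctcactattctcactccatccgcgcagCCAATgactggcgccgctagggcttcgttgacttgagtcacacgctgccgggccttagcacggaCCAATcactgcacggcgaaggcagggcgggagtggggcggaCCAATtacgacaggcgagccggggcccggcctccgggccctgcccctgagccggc
Insig1 held ATTGG 1 time and Msmo1 held CCAAT 3 times. The motif stood on either strand in 37.5% of all 27025 genes of the RefSeq promoter table and in 41.6% of the 8124 tested genes found there. A count over the list is void, since 17 of its 24 tested members (70.8%) had a promoter in that table.

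Fatty acid synthesis and desaturation moved the same way, with 9 of 21 tested members higher in KO2 (42.9%), 0 lower and a median of 0.16. The count was 4 without KO1 replicate 2 and 5 without KO2 replicate 3. Scd1, the stearoyl-CoA desaturase that makes monounsaturated fatty acids, had 656, 636 and 709 in KO2, against 476, 491 and 486 in KO1 and 453, 439 and 445 in WT (0.46 ± 0.04, adjusted p = 3.1e-12). Its KO2 libraries lay well clear of the KO1 libraries. Scd2, a second desaturase, was higher by 0.22, and the polyunsaturated desaturase genes Fads2 and Fads1 by 0.27 and 0.21 (adjusted p = 2.0e-05, 1.7e-04 and 0.0051).

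Genes of the hypoxia response and glycolysis were higher in KO2 as well. HIF, the factor behind this response, binds a short core in the promoters of glycolytic and stress genes, and EGLN1 marks it for destruction while oxygen is present. Of 34 tested members 19 were higher in KO2 (55.9%), 0 lower, and the median was 0.18. The count was 12 without KO1 replicate 3. Slc16a3, the lactate exporter, had 347, 323 and 321 in KO2, against 242, 270.4 and 278 in KO1 and 240.1, 230.2 and 247 in WT (0.33 ± 0.05, adjusted p = 5.6e-06). Bnip3, which marks mitochondria for removal, had 114, 103 and 134 in KO2, against 82.8, 88.9 and 82.8 in KO1 (0.45 ± 0.07, adjusted p = 1.2e-05). In both genes each KO2 library exceeded each KO1 library.

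Ddit4, an inhibitor of mTORC1, had 159, 137 and 131 in KO2, against 107, 102 and 107 in KO1 (0.42 ± 0.07, adjusted p = 6.9e-06). Egln1 had 113, 103 and 109 in KO2, against 82.5, 86.6 and 77.5 in KO1 (0.39 ± 0.07, adjusted p = 4.4e-05). Slc2a3, a glucose transporter, had 4953, 4499 and 4979 in KO2, against 4243, 4152 and 3996 in KO1 and 3708, 3506 and 3619 in WT (0.22 ± 0.04, adjusted p = 1.9e-05). All 3 genes had KO2 above KO1 with no overlap.

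The promoters of 4 of these genes are printed to show the letters of the HIF core, ACGTG or its reverse complement CACGT, which are in capitals. They were picked for holding the core, as the 4 such higher members with the smallest adjusted p. Hk1, which encodes a hexokinase and has an adjusted p of 2.5e-05, was passed over because its window lacks these letters, and Slc2a3 has no entry in the promoter table. Each is the 250 bases upstream of the RefSeq start (GRCm38.p6): Slc16a3 at chr11:120948817-120949066 on the plus strand, and on the minus strand Ddit4 at chr10:59951771-59952020, Bnip3 at chr7:138909507-138909756 and Egln1 at chr8:124949255-124949504.
Slc16a3: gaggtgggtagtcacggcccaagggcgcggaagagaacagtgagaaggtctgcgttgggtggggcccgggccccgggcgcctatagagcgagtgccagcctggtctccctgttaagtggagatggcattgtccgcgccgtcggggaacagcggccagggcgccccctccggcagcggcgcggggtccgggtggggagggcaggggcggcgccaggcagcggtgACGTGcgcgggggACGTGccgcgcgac
Ddit4: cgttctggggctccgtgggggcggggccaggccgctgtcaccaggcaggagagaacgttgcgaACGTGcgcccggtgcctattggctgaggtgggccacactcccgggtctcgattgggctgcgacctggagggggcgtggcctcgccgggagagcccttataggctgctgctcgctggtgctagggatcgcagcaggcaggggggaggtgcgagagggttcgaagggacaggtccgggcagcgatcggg
Bnip3: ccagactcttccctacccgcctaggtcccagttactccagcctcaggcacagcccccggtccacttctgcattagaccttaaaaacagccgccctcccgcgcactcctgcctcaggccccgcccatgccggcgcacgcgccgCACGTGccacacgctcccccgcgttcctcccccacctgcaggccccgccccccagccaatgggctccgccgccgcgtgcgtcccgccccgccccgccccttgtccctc
Egln1: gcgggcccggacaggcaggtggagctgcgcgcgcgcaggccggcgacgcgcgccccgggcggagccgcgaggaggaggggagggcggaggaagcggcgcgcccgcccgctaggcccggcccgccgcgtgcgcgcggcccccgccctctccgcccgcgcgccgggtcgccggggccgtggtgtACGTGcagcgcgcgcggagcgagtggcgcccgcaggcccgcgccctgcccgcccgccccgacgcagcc
Bnip3 holds the palindrome CACGTG, which reads as the core on both strands. The core stood in 19 of the 30 members with a RefSeq promoter (63.3%), in 26.4% of the 8124 tested genes with one and in 18.5% of all 27025 genes of the table. Of the 17 higher members with a promoter 12 held it. The list was made of genes of the response that HIF drives. A high share could follow from that choice and is no result about the lines. The letters are a match and not a measured binding site, and they are also the centre of the E-box bound by other factors.

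Called genes of the stress response and of cytosolic ribosomal proteins were mostly higher in KO2, though most members of both lists were not called. Of 24 tested genes of the integrated stress and unfolded protein response 6 were higher in KO2 (25%, against 4.71% of all tested genes) and 1 lower (4.17%, against 5.22%), with a median of 0.08. They included Ddit4, the serine synthesis gene Phgdh (0.23, adjusted p = 0.0059), the chaperone gene Calr (0.14, adjusted p = 0.0061) and Ddit3, which encodes CHOP (0.41, adjusted p = 0.015). A second entry named Ddit3 lay under the filter on low values, at 2.60 to 3.90 in KO2 and 2.73 to 3.16 in KO1, which overlap. The higher count was 3 without KO1 replicate 2, and the lower count 0 without replicate 2 or 3 of KO1, or replicate 1 of KO2. Phgdh lost its call without KO2 replicate 1, Ddit3 without KO1 replicate 2 or KO2 replicate 1, and Calr under quantile normalization. Of 82 tested genes for cytosolic ribosomal proteins 20 were higher in KO2 (24.4%, against 4.71% of all tested genes) and 0 lower, with a median of 0.08, led by Rplp2 (0.24), Rpl36 (0.24), Rpl13 (0.18) and Rpl12 (0.20). That count was 8 without KO1 replicate 1, 9 without KO1 replicate 2 and 10 without KO2 replicate 2. Many ribosomal protein genes have processed copies that can share their reads.

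**Figure D4:**
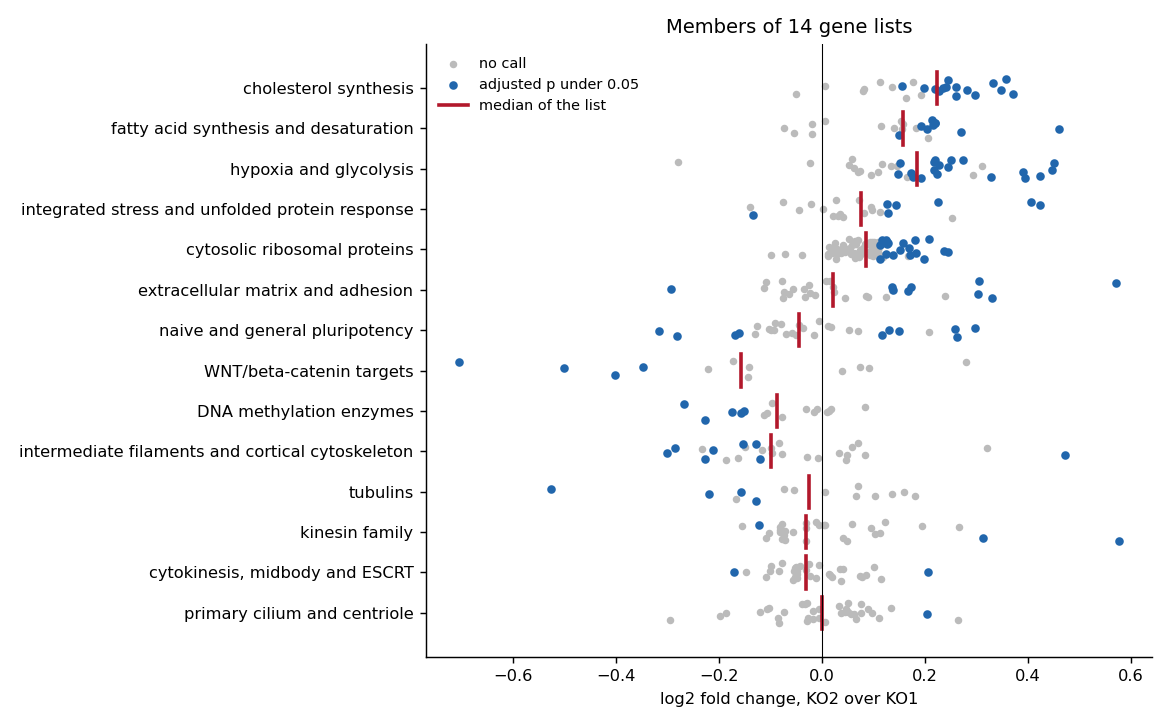
The log2 fold change of KO2 over KO1 for the tested members of 14 gene lists, with called members in blue and the median of each list as a red line. The medians of cholesterol synthesis (0.22), fatty acid synthesis (0.16) and hypoxia and glycolysis (0.18) lie to the right of 0, and that of WNT targets (-0.16) to the left.

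Of 12 tested WNT/beta-catenin targets 4 were lower in KO2 (33.3%, against 5.22% of all tested genes), 0 were higher and 8 were not called. The median was -0.16, and 4 of the 12 had positive fold changes. Axin2, a feedback inhibitor of the pathway and its usual readout, had 120.2, 124 and 111 in KO2, against 168, 165 and 170 in KO1 and 161, 155 and 173 in WT (-0.50 ± 0.06, adjusted p = 4.9e-09). Notum, a secreted enzyme that inactivates WNT, had 87.9, 89.3 and 72.1 in KO2, against 110.0, 97.4 and 123 in KO1 (-0.40 ± 0.07, adjusted p = 1.2e-04). Both had every KO2 library under every KO1 library. Sp5, a transcription factor gene read at a low level, had 8.98, 11.6 and 10.8 in KO2, against 17.1, 16.0 and 19.9 in KO1 (-0.71 ± 0.14, adjusted p = 4.4e-04). Ccnd1, cyclin D1, had 222, 216 and 200.1 in KO2, against 263, 281 and 268 in KO1 (-0.35 ± 0.05, adjusted p = 1.0e-06). The count of 4 was the same in each fit that left out 1 library.

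Markers of the stem cell state were near equal or split in direction. Pou5f1 had 2438, 2434 and 2329 in KO2 and 2263, 2349 and 2339 in KO1 (adjusted p = 0.40), and Nanog had 1565, 1613 and 1695 in KO2 and 1650, 1688 and 1737 in KO1 (adjusted p = 0.33). The libraries of the lines overlapped for both. Sox2 was called higher in KO2 (0.26 ± 0.07, adjusted p = 0.043), but not without replicate 1 or 2 of KO1, replicate 2 or 3 of KO2, or replicate 2 of WT, nor in DESeq2, either edgeR fit, median-ratio scaling, quantile normalization or the fit with a replicate block. Of 29 tested members of the naive and general pluripotency list 6 were higher (20.7%, against 4.71% of all tested genes) and 4 lower (13.8%, against 5.22%) in KO2. Tdgf1, the NODAL co-receptor Cripto, was higher (0.30, adjusted p = 1.0e-06), whereas Gdf3, a ligand of the same pathway (-0.28, adjusted p = 7.4e-05), and Dppa2 (-0.32, adjusted p = 0.0012) were lower. The higher count was 1 without KO1 replicate 1 or KO1 replicate 2 and 2 without KO2 replicate 2. The lower count was 2 without KO1 replicate 2 or KO1 replicate 3.

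Of 16 tested genes of the NODAL and LEFTY pathway 3 were higher (18.8%, against 4.71% of all tested genes) and 2 lower (12.5%, against 5.22%) in KO2, the lower ones being Gdf3 and Lefty1. Lefty1, a secreted NODAL inhibitor, was called at -0.27 (adjusted p = 0.019) but lost the call without replicate 2 or 3 of KO1, or replicate 3 of KO2, and the lower count was then 1. Skil, a brake on SMAD signalling, was called at 0.23 and lost the call without KO2 replicate 1, where the higher count was 1. Of 13 tested formative and primed genes 2 were higher (15.4%) and 1 lower (7.69%), with 1 higher when no filter or a replicate block was used: Otx2 (0.28, adjusted p = 0.0057) was higher and Dnmt3b (-0.27, adjusted p = 1.0e-04) lower. Tead2 (0.15) was the other higher member, with a call lost without any 1 of the 6 knockout libraries and, for the higher count, 1 left without KO1 replicate 1, KO1 replicate 2 or any KO2 replicate; the lower count was 2 without KO2 replicate 3 or WT replicate 2.

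Enzymes of DNA methylation and its readers were lower in KO2 in 5 of 16 tested genes (31.2%, against 5.22% of all tested genes), with 0 higher and a median of -0.09. Dnmt3b, a de novo methyltransferase, had 189, 190.3 and 187 in KO2, against 226, 227 and 230 in KO1. The 5-methylcytosine oxidase gene Tet2 (-0.23), the KAP1 gene Trim28 (-0.16) and the H3K9 methyltransferase gene Setdb1 (-0.17) also kept their calls without any 1 library (adjusted p = 1.6e-04, 0.0018 and 0.0026). Among 27 tested imprinted genes 2 were higher (7.41%, against 4.71% of all tested genes) and 3 lower (11.1%, against 5.22%) in KO2. Mest, which is expressed from the paternal copy, had 65.5, 64.2 and 68.6 in KO2, against 86.0, 87.8 and 87.9 in KO1 (-0.40 ± 0.07, adjusted p = 4.0e-05). Impact was lower (-0.26, adjusted p = 0.0018). Zdbf2 was called lower (-0.24), a call lost without replicate 2 or 3 of KO1, or replicate 2 of KO2, and Igf2r was called higher (0.19), a call lost without KO2 replicate 1; the higher count was 1 without KO1 replicate 3 or KO2 replicate 1. Of 14 tested methylation-sensitive germline genes Tdrd12 was the 1 called (7.14%), with 84.6, 82.2 and 87.6 in KO2, against 106, 110.3 and 99.5 in KO1 and 77.7, 84.9 and 81.0 in WT (-0.31 ± 0.07, adjusted p = 0.0011). The lower count there was 3 without KO2 replicate 3 and 2 without WT replicate 2, and 1 member was higher without KO1 replicate 1 or WT replicate 2. DESeq2, fits with median-ratio scaling and quantile normalization also gave 2 lower, and 1 member was higher in both edgeR fits, under these 2 scalings and with a pseudocount of 0.1.

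In the cytoskeleton, 7 of 26 tested genes for intermediate filaments and cortical proteins were lower in KO2 (26.9%) and 1 higher, with a median of -0.10. Vim, the intermediate filament vimentin, had 310.2, 314 and 305 in KO2, against 383, 362 and 402 in KO1 and 429, 438 and 437 in WT (-0.30 ± 0.04, adjusted p = 2.2e-06). Actb, beta-actin, had 4035, 4187 and 3870 in KO2, against 4610, 4472 and 4362 in KO1 (-0.15 ± 0.03, adjusted p = 0.0015). Moesin, encoded by Msn (-0.21), and S100a10 (-0.29) were lower too. The lower count was 4 without KO1 replicate 2 or KO2 replicate 1, and the higher count 0 without KO1 replicate 2 or KO2 replicate 2.

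Tubulins and their regulators belong to the microtubule system, where Kif2a acts. Of 14 tested tubulin genes 4 were lower in KO2 (28.6%, against 5.22% of all tested genes) and 0 higher, with a median of -0.03. The lower genes were Tubb3, Tuba1a (-0.22, adjusted p = 0.0032), Tuba4a (-0.16) and Tubb4b (-0.13). Tuba4a lost its call without KO1 replicate 3 or KO2 replicate 3, and Tubb4b without replicate 2 or 3 of KO1, or replicate 1 or 3 of KO2. The lower count was 2 without KO1 replicate 3 or KO2 replicate 3, and 1 gene was higher without KO1 replicate 3 and under quantile normalization. Tubulin genes are alike in sequence, and their reads could be split in counting. Among 24 microtubule regulators 3 were higher (12.5%, against 4.71% of all tested genes) and 2 lower (8.33%, against 5.22%). Clip1, the plus-end tracking protein CLIP-170, had 84.3, 85.6 and 80.6 in KO2, against 63.7, 61.7 and 67.3 in KO1 (0.37 ± 0.08, adjusted p = 4.9e-04), and Map7, which binds kinesin-1, was higher by 0.30 (adjusted p = 3.6e-04). The lower members, Map6 (-0.44) and Map1b (-0.20), lost their calls without replicate 1 or 2 of KO1, or replicate 2 of KO2, Map6 also without KO2 replicate 1 and Map1b also without KO1 replicate 3. Their count was 0 without replicate 1 or 2 of KO1, or replicate 2 of KO2, and 1 without KO1 replicate 3 or KO2 replicate 1.

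Of 31 tested kinesin genes 2 were higher in KO2 (6.45%) and 1 lower (3.23%), shares near those of all tested genes. Kif21b, a plus-end kinesin, had 31.1, 27.8 and 29.4 in KO2, against 18.1, 20.3 and 19.8 in KO1 (0.58 ± 0.14, adjusted p = 0.0033) and kept its call without any 1 library. Kif3c (0.31) and Kif5b (-0.12) were called at adjusted p = 0.048 and 0.047. Kif3c lost its call without KO1 replicate 2 or 3, any KO2 replicate, or WT replicate 1 or 3, which left 1 higher member. Kif5b lost its call without KO1 replicate 2 or 3, KO2 replicate 1 or 2, or WT replicate 1 or 3, which left 0 lower members, while 2 were lower without KO2 replicate 3 or WT replicate 2 and with median-ratio scaling. Both Kif3c and Kif5b also lost their calls in DESeq2, with no filter on low values, under quantile normalization and with a replicate block. Of 36 tested genes of the primary cilium and centriole 1 was higher (2.78%, against 4.71% of all tested genes), Ift52 (0.20, adjusted p = 0.032), and 0 were lower. Its call was lost without any KO1 library or replicate 1 or 3 of KO2, and 1 gene was lower without either of these KO2 libraries. Of 33 genes of cytokinesis and ESCRT Chmp2a was higher (0.21, adjusted p = 0.018) and Cit lower (-0.17, adjusted p = 0.045). Each made 3.03% of the list, against 4.71% higher and 5.22% lower over all tested genes. Chmp2a lost its call without KO1 replicate 3 or replicate 1 or 3 of KO2. Cit lost its call without replicate 2 or 3 of KO1, any KO2 library or WT replicate 1, with no filter on low values, under quantile normalization and with a replicate block. Without WT replicate 2, in DESeq2 and with median-ratio scaling 2 genes were lower.

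Growth control and cell death genes gave isolated differences. Of 26 tested genes of the p53 list 2 were higher in KO2 (7.69%, against 4.71% of all tested genes) and 1 lower (3.85%, against 5.22%). The higher ones were the pro-apoptotic genes Bbc3 (PUMA; 33.9, 34.5 and 30.8 in KO2, against 22.9, 22.3 and 22.7 in KO1; 0.53 ± 0.11, adjusted p = 4.6e-04) and Pmaip1 (NOXA; 0.47, adjusted p = 0.0039). Pmaip1 lost its call without KO1 replicate 3, which left 1 higher member. DESeq2 called 4 members higher, quantile normalization 3 and a filter at a mean of 50 left 0. Trp53, the gene of p53 itself and not a target, was called lower (-0.13, adjusted p = 0.025), a call lost without any KO1 replicate or KO2 replicate 3. The lower count was 0 without replicate 2 or 3 of KO1 or KO2 replicate 3, and 2 without KO2 replicate 2 or replicate 1 or 2 of WT, with a filter at a mean of 50, with median-ratio scaling or in the fit of only the 6 knockout libraries. Mat2a, which makes the methyl donor S-adenosylmethionine, had 351, 356 and 360.2 in KO2, against 468, 481 and 467 in KO1 and 482, 514 and 510.4 in WT (-0.41 ± 0.04, adjusted p = 1.6e-10). Its KO2 libraries lay below all others. Gpx1, a selenium-dependent peroxidase, had 297, 293 and 272 in KO2, against 361, 355 and 393 in KO1 and 434, 463 and 456 in WT (-0.36 ± 0.05, adjusted p = 1.0e-07), and Gpx2 differed by -0.42 (adjusted p = 6.5e-04).

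The lists of matrix genes and of primitive endoderm markers overlap. Of 31 tested matrix and adhesion genes 8 were higher (25.8%, against 4.71% of all tested genes) and 1 lower, with a median of 0.02. The higher count was 4 without KO2 replicate 1 and 5 without KO1 replicate 2. Col4a2, a basement membrane collagen, had 35.0, 32.6 and 37.3 in KO2, against 22.2, 23.1 and 24.3 in KO1 (0.57 ± 0.10, adjusted p = 1.5e-04). Dsp, the desmosomal protein desmoplakin (0.30), and the basement membrane gene Nid2 (0.17) were higher, and the adhesion molecule gene Epcam was lower with 151, 144 and 161 in KO2, against 192, 186 and 180.1 in KO1 and 152, 152 and 151 in WT (-0.29 ± 0.05, adjusted p = 1.7e-04). Of 9 tested primitive endoderm markers 4 were higher (44.4%) and 0 lower, with a median of 0.03: Col4a2, Col4a1 (0.30), Fn1 (0.14) and Gata4, a transcription factor of that lineage, with 19.9, 20.5 and 20.1 in KO2, against 13.6, 12.6 and 14.1 in KO1 (0.55 ± 0.13, adjusted p = 0.0036). The Fn1 call was lost without KO2 replicate 1 and under quantile normalization, which gives the top-ranked gene the same value in every library.

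Markers of other cells were examined by their summed level and by single genes. The summed level of the fibroblast list, which stands for feeder cells, was 351 to 378 in KO2, 330 to 334 in KO1 and 305 to 308 in WT. Of its 4 tested genes Col5a1 was called higher in KO2 (0.42, adjusted p = 1.5e-05), with 99.2, 94.5 and 100.02 in KO2, against 71.0, 76.1 and 71.2 in KO1. Genes of this list under the filter on low values split in direction. Col1a1 and Col1a2 were at 1.13 to 1.89 and 2.95 to 3.49 in KO2 and at 0.670 to 1.38 and 4.23 to 4.94 in KO1. Thy1 stood at 9.22 to 12.2 in KO2 and 7.04 to 8.27 in KO1, and Tagln at 0.945 to 1.34 and 0.197 to 0.766. Col5a2 was lower in KO2, at 3.08 to 5.44 against 5.57 to 6.60 in KO1, and Twist1 overlapped between the lines. The primitive endoderm list summed to 10860 to 11552 in KO2 and 10436 to 10583 in KO1, and Pdgfra stood at 0.822 to 1.89 in KO2 and 0.394 to 1.05 in KO1. The part of such cells in the differences was not tested, and in bulk RNA fewer cells of a kind and less RNA per cell cannot be told apart. Mitochondrial genes took 0.847%, 0.860% and 1.03% of the reads in KO2 and 1.01%, 1.01% and 0.906% in KO1. Of the 8 tested mitochondrially encoded genes mt-Cytb was called lower in KO2 (-0.23, adjusted p = 0.0022), with 1725, 1769 and 2070 in KO2, against 2211, 2184 and 2097 in KO1. KO2 replicate 3 lay apart from the other KO2 libraries; without it 5 of the 8 were lower, and without WT replicate 3 it was 2, while DESeq2 did not call mt-Cytb.

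For most genes that differed between the lines WT lay nearer to KO1. The mean WT level was placed on the log2 scale between the line means, at 0 for KO1 and 1 for KO2, as a description of genes chosen by the contrast that sets this scale. WT was nearer to KO1 in 888 of the 1016 called genes (87.4%) and nearer to KO2 in 128 (12.6%). Over all tested genes it was nearer to KO1 in 65.7%. Among called genes higher in KO2 the share nearer to KO1 was 92.5%, and among those lower in KO2 it was 82.8%. The Y-linked genes, Hccs, Cd109, Tdrd12 and Epcam belonged to the smaller group in which KO1 was the line apart from WT.

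**Figure D5:**
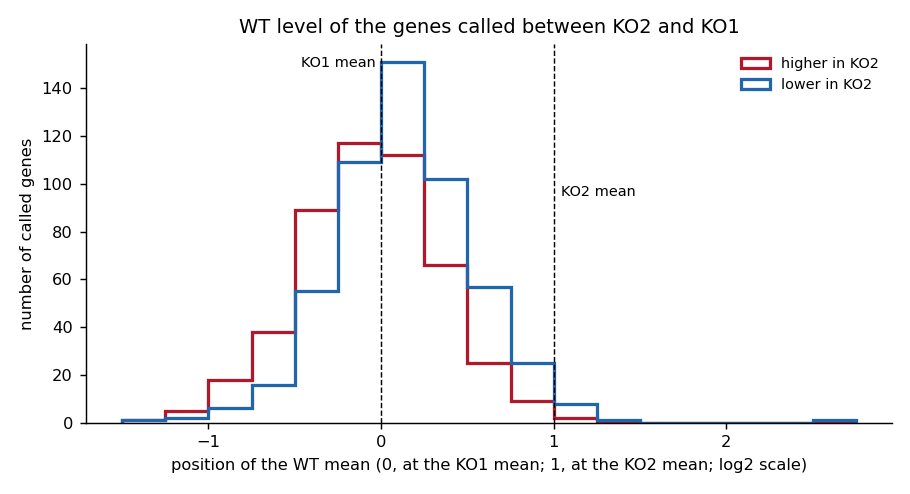
The number of called genes by the position of their WT mean, with the KO1 mean at 0 and the KO2 mean at 1 on the log2 scale, for genes higher (red) and lower (blue) in KO2. Most genes of both kinds lie near 0, where the WT mean is close to the KO1 mean, and 128 of 1016 lie nearer to the KO2 mean.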

How the data were processed

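The authors' table holds a signal per gene and library that was deposited already scaled. Its 15526 entries, called genes here, have 15504 distinct symbols. The submitters' processing notes name HISAT2, DESeq2 and the GRCm38 build; for versions, annotation and strand setting, not given in the sources used here. Dividing each column by its smallest step gave whole reads for 100% of values (tolerance 0.05 reads).

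Of 15526 genes, the 10238 with a mean value of at least 10 were fitted with limma 3.58.1 (R 4.3.3) on log2(value + 1), with a mean per group over 9 libraries, trend and robust moderation, for KO2 minus KO1. Fold changes are on that scale and understate low genes. A call is a Benjamini-Hochberg adjusted p under 0.05 over all 10238 genes. The plan had assumed that the unit could be counts; edgeR 4.0.16 and DESeq2 1.42.0 were run on the recovered reads as alternatives, as were other scalings, pseudocounts, filters and fits without 1 library. The fit was tested on simulated data.

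Members, 40 gene lists and tests were chosen with earlier results of these data known. Named genes are the 15 highest and 15 lowest called genes with a mean of at least 50 and no overlap between the lines, at most 4 leading members by adjusted p per list, the tested Y-linked genes, genes within 1 Mb of Kif2a or Ncor1, and Pou5f1, Nanog and Sox2; predicted and clone-named genes were passed over. The lysosome list is not reported here. Positions come from GENCODE M21 by symbol, which 299 genes lack, and promoters from RefSeq.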

Additional observations from a re-analysis of the deposited data

Results flagged for a closer look

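In 4 genes KO2 and KO1 lay on opposite sides of WT, each line called against WT, and the test of the difference between the lines was itself past the threshold; both comparisons share the WT libraries. Trh differed by -0.85 on the log2 scale between KO2 and KO1, with -0.60 for KO2 against WT and 0.25 for KO1 against WT. Ddx3y differed by -1.07, with -0.23 for KO2 against WT and 0.84 for KO1 against WT. Syne2 differed by -0.45, with -0.19 and 0.25 for KO2 and KO1 against WT. Ablim1, which encodes an actin-binding LIM protein and is named after its values were seen, differed by -0.41, with -0.18 for KO2 against WT and 0.23 for KO1 against WT.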

How the results depend on the processing

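Leaving out 1 library at a time gave 521 to 1207 calls, 240 to 563 higher and 281 to 644 lower in KO2, and 37 to 49 genes of at least 1.5-fold. That last count was 5 with a filter at a mean of 50, 110 with no filter and 14 with a pseudocount of 5; the filter changes which genes enter, and the pseudocount shrinks low genes by construction. The other fits gave 802 to 1080 calls: 1075 in edgeR with TMM factors, 979 in DESeq2 and 1033 after quantile normalization, sharing 976, 908 and 915 genes with the 1016. No named gene reversed its sign. Of 127 named genes with a call 88 kept it in every fit without 1 library and 114 in every other fit. List and chromosome counts moved by over 1.5 times in 328 of 2480 recounts, and the cause was not tested. Many were lists with few calls, but large counts moved too. The lower count of chromosome 4 fell from 42 to 17 without KO1 replicate 2, and that of chromosome 11 from 50 to 26 without KO1 replicate 3. The medians of the cholesterol, fatty acid, hypoxia, ribosomal protein, WNT, DNA methylation and cytoskeleton lists kept their sign under all scalings. Replicate numbers did not pair the libraries: the correlation of same-numbered libraries was -0.129 to 0.027 over 9 pairs. With a replicate block 867 genes were called, 863 of them shared. At 8.45 to 10.4 reads per unit of value, a gene at the filter has few reads and a wide interval.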

Other observations

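Of 28 tested G2/M and spindle genes 0 were higher and 4 lower in KO2 (14.3%, against 5.22% of all tested genes), among them the checkpoint gene Mad2l1 (-0.24, adjusted p = 0.0043), which kept its call without any 1 library. The lower count was 1 without replicate 2 or 3 of KO1, or replicate 1 of KO2 and 2 without KO2 replicate 2. It was 1 with no filter on low values or a replicate block. Of 37 tested replication genes 2 were higher (5.41%, against 4.71% of all tested genes) and 3 lower (8.11%, against 5.22%). Pold1, a DNA polymerase delta subunit, was higher (0.23, adjusted p = 0.0017) and the cyclin gene Ccne1 lower (-0.20, adjusted p = 0.0030). The higher count was 1 in every fit without 1 library save those without KO2 replicate 3 or WT replicate 2, and the lower count was 1 without KO1 replicate 2 and 5 without WT replicate 2.

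Zinc finger genes of the Zfp series had 7 of 243 tested members higher (2.88%) and 12 lower (4.94%), shares below those of all tested genes. Zfp827 was lowest of the named ones (-0.52, adjusted p = 3.1e-04). The higher count was 2 to 4 without replicate 1 or 2 of KO1, or replicate 1 or 3 of KO2, and the lower count 6 without KO1 replicate 2 or KO2 replicate 1.

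Mitochondrial proteins encoded in the nucleus gave few calls. Of 75 genes for mitochondrial ribosomal proteins 0 were higher and 2 lower, and of 79 respiratory chain subunits 3 were higher and 0 lower. These shares lay below those of all tested genes (4.71% higher and 5.22% lower), though the higher share of respiratory subunits was near its background. The lower count of mitochondrial ribosomal genes was 0 without KO1 replicate 3 and 1 without KO1 replicate 1 or KO2 replicate 1. The higher count of respiratory genes was 0 without KO1 replicate 2, and 1 without replicate 1 or 3 of KO1, or replicate 1 or 2 of KO2; 1 was lower without KO1 replicate 3, KO2 replicate 3 or WT replicate 2.

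Of 28 one-carbon genes 3 were higher and 3 lower in KO2 (10.7% each, against 4.71% and 5.22% of all tested genes), and 5 were higher under quantile normalization. Bhmt, which remethylates homocysteine with betaine, had 112, 112 and 118 in KO2, against 135, 131 and 138 in KO1 and 89.6, 82.5 and 84.5 in WT (-0.24 ± 0.06, adjusted p = 0.0076), so both lines lay above WT and KO2 less so. Of 9 tested genes of the BMP list Bmp7, which encodes a BMP ligand and not a target, was the 1 called. It made 11.1% of the list, against 4.71% higher over all tested genes. Bmp7 had 25.9, 22.9 and 24.9 in KO2, against 16.0, 17.9 and 16.2 in KO1 (0.53 ± 0.12, adjusted p = 0.0025). The target genes Id1, Id2, Id3 and Id4 lay under the filter on low values. Without KO2 replicate 1 a second member of the BMP list was higher. Of 11 FGF/ERK targets 1 was higher (9.09%, against 4.71% of all tested genes), Ier3 (0.61, adjusted p = 1.7e-04). Ccnd1, which is also a WNT target, was the 1 lower (9.09%, against 5.22%). Both counts were 2 without KO2 replicate 3 or WT replicate 2. Higher members also numbered 2 in DESeq2, both edgeR fits, with median-ratio scaling, under quantile normalization and in the fit of only the 6 knockout libraries. Of 27 selenoprotein and glutathione genes 3 were lower (11.1%, against 5.22% of all tested genes) and 0 higher, with 1 higher without KO2 replicate 2. Of 13 tested genes of the YAP/TEAD list Tead2, which encodes a TEAD factor itself, was higher (0.15, adjusted p = 0.041). Ajuba was lower (-0.16, adjusted p = 0.022). Each made 7.69% of the list, against 4.71% higher and 5.22% lower over all tested genes. Tead2 lost its call without any KO1 or KO2 library, and Ajuba without replicate 2 or 3 of KO1, or replicate 2 of KO2. Of 5 trophoblast markers 1 was higher (20%), Ets2 (0.23, adjusted p = 0.026), a call lost without replicate 1 or 2 of KO1, or replicate 1 of KO2. Of 7 neuroectoderm markers 1 was lower (14.3%, against 5.22% of all tested genes), Tubb3 (-0.53, adjusted p = 4.2e-07), and of 3 primitive streak and mesoderm markers 0 were called.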
